A study of Mus musculus with 24 samples.

Results

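The mRNA levels of 33 genes for the enzymes and carriers of glycolysis, lactate handling and glycogen metabolism were examined in optically exercised muscle tissues. The genes were taken by name from tables of 56941 genes. They comprised 14 genes of the glycolytic pathway, 4 Pfkfb genes that set its regulator fructose 2,6-bisphosphate, 4 lactate genes and 11 glycogen genes. Of the 33 genes, 32 had enough reads to be tested, among 13318 genes in all. Pfkfb1 did not, with 2 to 14 estimated counts per library.

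The tissues were sheets of muscle fibers grown on fibrin hydrogel from C2C12 cells, an established mouse myoblast line that fuses into contractile fibers in culture. All of them, the unstimulated ones included, had the genotype ChR2::tdTomato, in which a channelrhodopsin makes the membrane responsive to blue light, and all were differentiated with horse serum and IGF-1. Daily light sessions of 30 min ran at 1, 4 or 10 Hz, and control tissues got no light, with 6 bulk RNA-seq libraries per condition and RNA taken after 2 weeks of differentiation. The comparison asks how the stimulation frequency bears on muscle gene expression. Fibers without nerve or blood vessels twitched spontaneously in every condition, which limits the control as a resting state, and the replicates are described in the methods of the study as biological replicates grown in multiwell plates. The labels do not name separate cultures, and the p-values measure the spread between these libraries. In bulk RNA, fewer cells of a type cannot be told apart from less RNA per cell.

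Glycolysis splits glucose into pyruvate in the cytosol and yields ATP without oxygen, and fast muscle fibers depend on it during short bursts of work. Muscle stores glucose as glycogen, which phosphorylase breaks down when calcium activates phosphorylase kinase. Several steps have a muscle isoform beside others. Enolase has Eno3 (muscle) beside Eno1, phosphoglycerate mutase has Pgam2 (muscle) beside Pgam1, phosphofructokinase has Pfkm (muscle) beside Pfkl (liver) and Pfkp (platelet), and glycogen phosphorylase has Pygm (muscle) beside Pygl (liver) and Pygb (brain). During myogenic differentiation the muscle isoforms are known to gain on the other ones.

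The promoters of 4 of these isoforms are shown first, because the comparison of muscle with other isoforms turns on them. They are the 250 bases before the transcription start from RefSeq (build GRCm38.p6), 5′ to 3′ on the strand of the gene. Pgam2 (chr11:5803797-5804046, minus strand) and Pgam1 (chr19:41911621-41911870, plus strand) are the muscle and the widely expressed mutase, and Eno3 (chr11:70656926-70657175, plus strand) and Pygm (chr19:6384158-6384407, plus strand) are the muscle enolase and phosphorylase. Capitals mark matches on either strand to CAGCTG (an E-box form bound by myogenic factors such as MyoD), ACGTG (the core of hypoxia response elements, also part of the E-box CACGTG) and the MEF2 site of muscle genes.
Pgam2: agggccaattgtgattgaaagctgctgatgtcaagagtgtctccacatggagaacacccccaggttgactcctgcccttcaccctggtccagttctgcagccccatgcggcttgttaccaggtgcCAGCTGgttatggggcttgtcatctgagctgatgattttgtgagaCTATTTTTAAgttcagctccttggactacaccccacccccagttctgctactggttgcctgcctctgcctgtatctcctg
Pgam1: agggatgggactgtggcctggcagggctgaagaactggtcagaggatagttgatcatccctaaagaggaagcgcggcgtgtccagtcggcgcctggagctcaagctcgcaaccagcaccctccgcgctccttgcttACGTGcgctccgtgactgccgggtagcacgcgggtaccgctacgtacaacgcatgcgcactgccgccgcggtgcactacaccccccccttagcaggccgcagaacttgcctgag
Eno3: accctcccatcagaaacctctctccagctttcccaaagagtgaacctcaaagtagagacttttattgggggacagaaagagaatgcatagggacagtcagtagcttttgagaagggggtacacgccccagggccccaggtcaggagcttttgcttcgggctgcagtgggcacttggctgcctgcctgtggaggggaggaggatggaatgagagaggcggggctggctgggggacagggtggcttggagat
Pygm: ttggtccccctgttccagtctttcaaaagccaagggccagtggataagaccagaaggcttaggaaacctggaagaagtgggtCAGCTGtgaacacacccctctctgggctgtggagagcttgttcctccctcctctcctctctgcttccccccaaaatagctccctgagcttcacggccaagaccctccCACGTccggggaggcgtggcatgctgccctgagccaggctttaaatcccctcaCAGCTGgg
The muscle mutase promoter held a CAGCTG 125 bases and a MEF2 match 80 bases before the start, and the Pgam1 promoter held an ACGTG 114 bases before it. The Eno3 stretch held none of the 3 motifs, with a CAGCTG 39 bases past the start, and the Pygm stretch held CAGCTG at 168 and 8 bases and ACGTG at 61 bases before the start. All 33 genes were matched by symbol to 50 RefSeq windows that run from 250 bases before to 50 after a start. CAGCTG occurred in 26.0% of them against 16.3% of all 32851 windows, ACGTG in 42.0% against 19.6% and the MEF2 match in 4.0% against 3.19%. These matches describe letters and not bound sites.

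The total of estimated counts per library was 4.09 to 15.2 in units of 1e6 (median 7.48), of which the 33 genes took 1.66% to 2.54%. The markers of myotubes, 13 genes, were abundant in the control libraries, at a summed 13814 to 16544 TPM (transcripts per 1e6, scaled by transcript length), and above that range at 1 Hz (21079.5 to 25599.9 TPM) and 4 Hz (21204 to 29067 TPM). At 10 Hz the sums overlapped with control (13612 to 21929.8 TPM). In any library the markers of adipocytes summed to at most 1.66 TPM, those of endothelium to at most 0.805 TPM and those of nerve to at most 1.51 TPM. The 4 leukocyte markers, of which 1 had enough reads to be tested, summed to 86.2 to 168 TPM. Small RNAs without a poly(A) tail made up 96.6 to 168 counts per 1e6 of all counts in control libraries, 14.6 to 69.6 at 1 Hz, 18.5 to 50.0 at 4 Hz and 37.0 to 272 at 10 Hz. The labels say that low-input samples were ribodepleted instead of poly(A) selected and not which ones. At 1 and 4 Hz, where the small RNA ranges do not overlap with control, library preparation and stimulation therefore cannot be told apart.

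In the unstimulated tissues, glycolysis genes had the highest levels. On the TPM scale, which is per transcript length and allows genes to be compared, Gapdh (glyceraldehyde phosphate dehydrogenase) led at 5825 ± 677 TPM (SD, n = 6), followed by Aldoa (aldolase A) at 2971 ± 378 TPM, Pkm (pyruvate kinase) at 2245 ± 284 TPM and Pgk1 (phosphoglycerate kinase) at 2009 ± 87.6 TPM. The values of Pkm and Pgk1 did not differ beyond their spread. Ldha, the lactate dehydrogenase subunit that favors lactate formation, stood at 1425 ± 161 TPM and Ldhb, the subunit typical of heart, at 21.6 ± 1.80 TPM. Phosphofructokinase, the committing step, reached a summed level of 319.5 ± 37.8 TPM over its 3 isoforms.

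Glycogen genes lay lower. Stbd1, which tethers glycogen to membranes, led them at 206 ± 30.9 TPM, followed by Ugp2 (which makes UDP-glucose) at 187 ± 26.9 TPM and Gys1 (muscle glycogen synthase) at 94.97 ± 17.4 TPM. The subunits of phosphorylase kinase differed widely in level. Phkb (regulatory beta) was at 30.5 ± 7.20 TPM, Phka1 (muscle alpha) at 5.43 ± 1.06 TPM and Phkg1 (muscle catalytic gamma) at 1.74 ± 0.579 TPM, and Pygl stood at 1.22 ± 1.12 TPM.

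**Figure D1:**
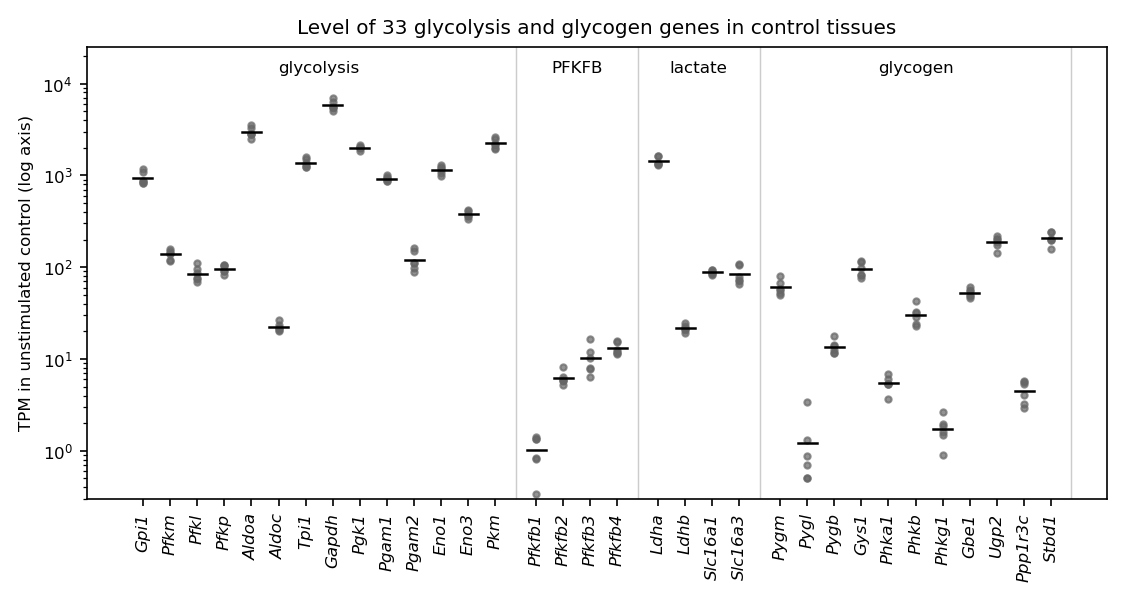
Level of each of the 33 genes in the 6 unstimulated libraries, in TPM on a log axis, with 1 point per library and a bar at the mean, grouped by pathway. The highest mean is that of Gapdh (5825 TPM), and Pygl, Phkg1 and Pfkfb1 lie lowest, between 1.02 and 1.74 TPM.

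Against control, a subset of these genes was higher at 1 and 4 Hz, and no member was counted at 10 Hz. Higher at both were the muscle isoforms Pgam2, Eno3 and Pygm, the liver isoform Pygl and the kinase subunit Phkb. A gene was counted where the edgeR quasi-likelihood test gave a Benjamini-Hochberg adjusted p below 0.05 over all genes tested and the log2 fold change exceeded 0.5 in size. At 1 Hz, 9 of 32 genes were counted, 8 higher and 1 lower, where 18.3% of all genes were counted (9.34% higher and 8.99% lower). At 4 Hz, 7 of 32 were counted, 6 higher and 1 lower, against 20.1% of all genes (10.5% higher and 9.61% lower). At 10 Hz, 0 of 32 were counted with edgeR, against 1.86% of all genes (1.24% higher and 0.623% lower). With DESeq2 1 member (Pgam2) was counted, where 191 of 13318 genes were counted higher and 98 lower. An unadjusted edgeR p below 0.05 was found at 10 Hz in 10 of 32 members and in 2750 of all 13318 genes. The share of members counted at 4 Hz was thus near that of all genes.

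By the adjusted p alone, 16 of 32 genes passed at 1 Hz, 16 at 4 Hz and 3 at 10 Hz, against 35.4%, 39.4% and 4.89% of all genes. Libraries did not overlap, with stimulation higher, in 7 members at 1 Hz, 7 at 4 Hz and 1 at 10 Hz, against 7.22%, 8.68% and 1.28% of all genes. They did not overlap, with stimulation lower, in 0, 2 and 1 members, against 5.86%, 7.93% and 1.30%. The median log2 fold change of the 32 genes was 0.28 at 1 Hz, 0.16 at 4 Hz and -0.12 at 10 Hz, with -0.01, -0.01 and -0.01 over all genes. On log2(TPM + 1), where the median of all genes moved to -0.16 at 4 Hz, 3 members were counted higher and 3 lower at that frequency. Of all 13627 genes tested on that scale, 677 were counted higher and 2057 lower. With total count scaling, where the median of all genes moved to -0.11, 5 members were counted higher and 1 lower, against 1012 and 1821 of all 13318 genes.

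When the share of small RNA entered the fit as a covariate, the counted members were 0 at 1 Hz and 1 at 4 Hz, namely Eno3 (log2 fold change 0.66, SE 0.16, edgeR adjusted p = 0.0330). In that fit 1 of all genes was counted at 1 Hz and 235 at 4 Hz.

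**Figure D2:**
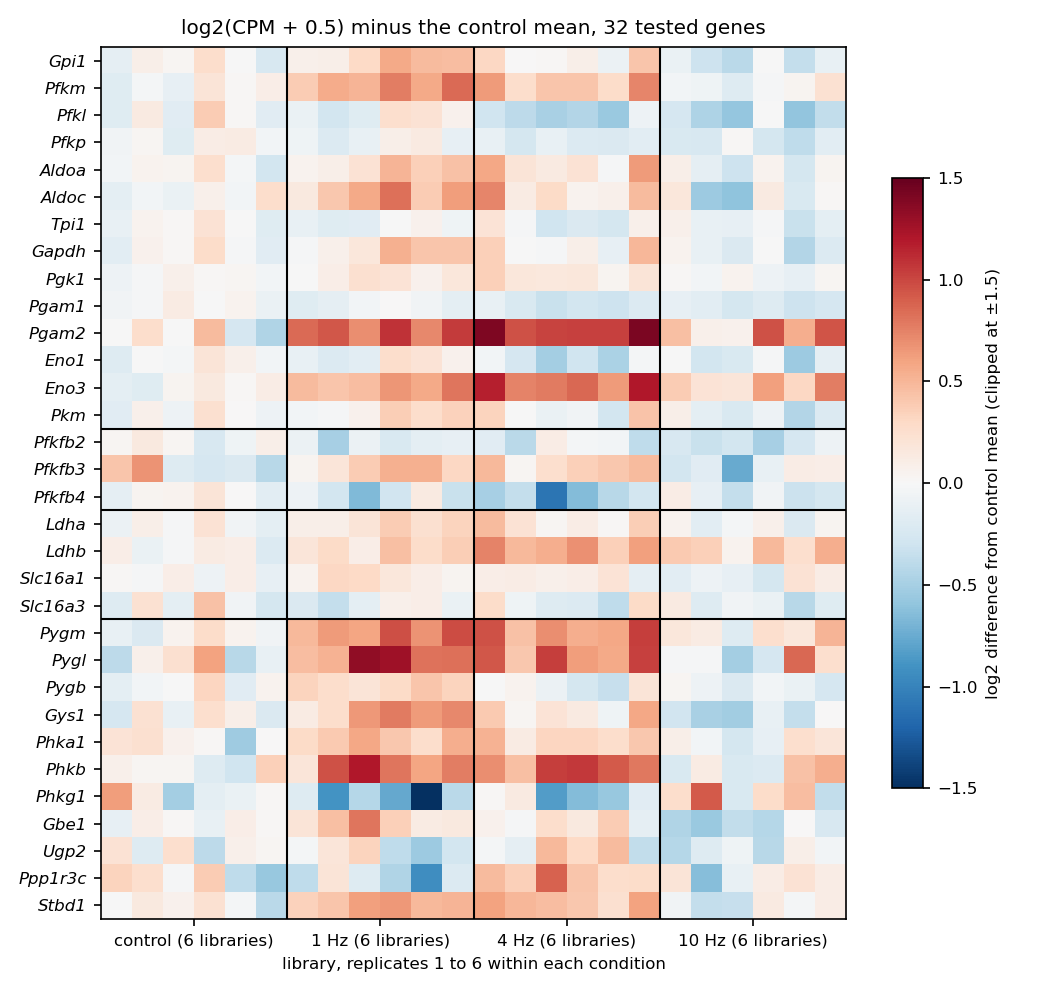
Difference of log2(CPM + 0.5) from the control mean for the 32 tested genes (rows, by pathway) in each of the 24 libraries (columns, replicates 1 to 6 of each condition), red for higher and blue for lower, with colors clipped at 1.5. Pgam2, Eno3 and Pygm are red in the 12 libraries at 1 and 4 Hz.

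Of the 14 glycolysis genes, 4 were counted higher at 1 Hz and 2 at 4 Hz, where 9.34% and 10.5% of all genes were, so that the 4 Hz share is near that of all genes. Levels between libraries are given from here on as counts per 1e6 counts (CPM), with library sizes scaled by the trimmed mean of M-values (TMM). Pgam2, the muscle phosphoglycerate mutase whose promoter is shown above (chr11:5751636-5753760 in GRCm39, minus strand, 3 exons), held 39.8 to 75.7 CPM (median 54.1) in control libraries and 89.1 to 116 CPM (median 101) at 1 Hz. It held 106 to 146 CPM (median 111) at 4 Hz and 57.3 to 106 CPM (median 77.1) at 10 Hz. Every library at 1 and 4 Hz lay above every control library, while the 10 Hz libraries overlapped with control. The log2 fold change was 0.86 ± 0.15 (SE) at 1 Hz and 1.12 ± 0.15 at 4 Hz (adjusted p = 1.64e-04 and 5.01e-06), and 0.51 ± 0.15 at 10 Hz, which missed the threshold (adjusted p = 0.0522).

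Eno3, the muscle enolase (chr11:70546593-70553340 in GRCm39, plus strand, 12 exons), held 298 to 373 CPM (median 344) in control libraries and 449 to 589 CPM (median 485) at 1 Hz. It held 524 to 778 CPM (median 596) at 4 Hz and 384 to 575 CPM (median 428) at 10 Hz. No stimulated library reached down into the control range. The log2 fold changes were 0.57 ± 0.11 at 1 Hz, 0.91 ± 0.11 at 4 Hz and 0.42 ± 0.11 at 10 Hz (adjusted p = 2.67e-04, 8.30e-07 and 0.0213), and the last was below the fold limit. The 4 Hz call held in all 12 other settings tried, the covariate included, and in all 24 fits that left out 1 library. Of these settings, the adjusted p alone could not lose a call. Fits without a 1 or 10 Hz library bear on this comparison only through the joint fit. The 1 Hz call was lost with total count scaling and with the covariate.

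Pfkm, the muscle phosphofructokinase (chr15:97990451-98031417 in GRCm39, plus strand, 23 exons), held 226 to 293 CPM (median 255) in control libraries and 331 to 459 CPM (median 377) at 1 Hz. It held 307 to 424 CPM (median 339.6) at 4 Hz and 224 to 300.3 CPM (median 250.04) at 10 Hz. The 1 and 4 Hz libraries were all above control and the 10 Hz libraries covered its range. Pfkm rose at 1 Hz by 0.61 ± 0.09 on the log2 scale (adjusted p = 3.34e-05), and its value at 4 Hz of 0.46 ± 0.09 (adjusted p = 3.61e-04) was under the fold limit. Aldoc, the brain-type aldolase, rose at 1 Hz by 0.52 ± 0.14 (adjusted p = 0.00652), from 21.8 to 29.3 CPM (median 23.5) to 26.8 to 43.3 CPM (median 34.3), with overlap. At 4 Hz it held 25.1 to 40.5 CPM (median 28.0) and at 10 Hz 15.7 to 27.3 CPM (median 22.6). The 1 Hz value fell under the fold limit (0.449 to 0.499) without control replicate 1 or 3 or without 1 Hz replicate 4 or 6, and the call was also lost with total count scaling and on the TPM scale.

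The widely expressed isoforms did not follow. Pgam1 held 950.4 to 1113 CPM (median 1013) in control, 901 to 1028 CPM (median 955) at 1 Hz, 807 to 945 CPM (median 857) at 4 Hz and 824 to 940.1 CPM (median 872) at 10 Hz. All 4 Hz and all 10 Hz libraries lay below all control libraries, with log2 fold changes of -0.24 ± 0.06 and -0.22 ± 0.06 (adjusted p = 0.00221 and 0.0340) under the fold limit. Eno1, Pfkl and Pfkp also passed the adjusted p at 4 Hz with negative values under that limit, -0.26 ± 0.10, -0.38 ± 0.12 and -0.18 ± 0.07, and their libraries overlapped with control.

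Gapdh, often used as a reference gene, was counted in 0 of the 6 comparisons. It held 3261 to 4434 CPM (median 3661) in control, 3629 to 5300.4 CPM (median 4516) at 1 Hz, 3368 to 5193 CPM (median 3783) at 4 Hz and 2704 to 3798 CPM (median 3279.8) at 10 Hz, and all 4 ranges overlapped. The log2 fold changes against control were 0.27 ± 0.11, 0.14 ± 0.11 and -0.16 ± 0.11 (adjusted p = 0.0591, 0.321 and 0.462). Between 10 and 1 Hz it was -0.43 ± 0.11 (adjusted p = 0.00401), under the fold limit. Gpi1, Aldoa, Tpi1, Pgk1 and Pkm had log2 fold changes of at most 0.33 in size against control. Reads of Gapdh, Eno1, Pgam1, Ldha and Tpi1 may be split with near-identical copies, so their levels are less certain. A second Aldoa entry in the tables (0 to 14 counts per library) was not tested, and gene-level values of Pkm do not separate its splice forms.

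**Figure D3:**
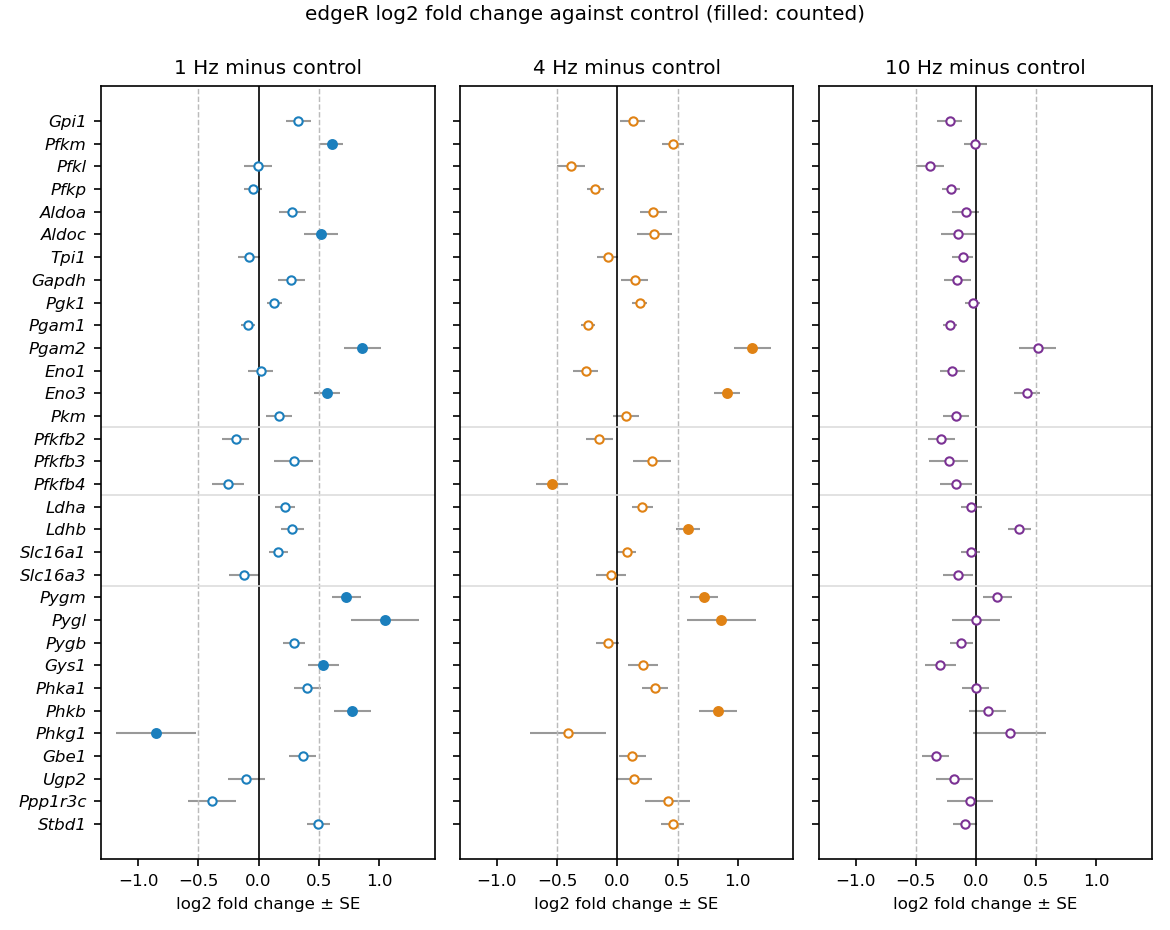
Log2 fold change (edgeR) against control of the 32 tested genes at 1, 4 and 10 Hz, with SE as horizontal lines, dashed lines at the fold limit of 0.5 in size and filled points for genes counted. There are 9 filled points at 1 Hz, 7 at 4 Hz and 0 at 10 Hz.

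The Pfkfb enzymes make and remove the fructose 2,6-bisphosphate that activates phosphofructokinase. Pfkfb4 fell by 0.54 on the log2 scale at 4 Hz (SE 0.13, adjusted p = 0.00193). Its libraries held 23.9 to 30.7 CPM (median 27.1) in control, 16.7 to 29.4 CPM (median 21.8) at 1 Hz, 12.2 to 22.0 CPM (median 19.3) at 4 Hz and 20.6 to 29.0 CPM (median 23.3) at 10 Hz, and those at 4 Hz lay below all control libraries. Without control replicate 4 or without 4 Hz replicate 3 the value was -0.497 to -0.449, under the fold limit. Pfkfb2 and Pfkfb3 had values of at most 0.29 in size against control.

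Among the lactate genes, Ldhb rose at 4 Hz by 0.59 ± 0.10 on the log2 scale (adjusted p = 3.93e-05). Its libraries held 14.2 to 17.9 CPM (median 16.9) in control, 17.7 to 22.6 CPM (median 20.1) at 1 Hz, 21.2 to 27.9 CPM (median 24.8) at 4 Hz and 17.1 to 24.2 CPM (median 21.5) at 10 Hz, and those at 4 Hz were all above control. The values at 1 and 10 Hz, 0.28 ± 0.10 and 0.36 ± 0.10, passed the adjusted p (0.0272 and 0.0290) and stayed under the fold limit. The 4 Hz call was lost on the TPM scale and with total count scaling. Ldha differed from control by 0.22 ± 0.09, 0.21 ± 0.09 and -0.04 ± 0.09, and the lactate carriers Slc16a1 (MCT1) and Slc16a3 (MCT4, typical of glycolytic fibers) by at most 0.16 in size.

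Of the 11 glycogen genes, 4 were counted higher (Pygm, Phkb, Pygl and Gys1) and 1 lower (Phkg1) at 1 Hz, where 9.34% of all genes were counted higher and 8.99% lower. At 4 Hz, 3 were counted higher (Pygm, Phkb and Pygl) and 0 lower, against 10.5% and 9.61% of all genes. Pygm, the muscle phosphorylase that releases glucose units from glycogen (chr19:6430569-6448538 in GRCm39, plus strand, 20 exons), held 85.7 to 120.0 CPM (median 99.2) in control and 139.5 to 197 CPM (median 157) at 1 Hz. It held 135 to 205 CPM (median 155) at 4 Hz and 87.1 to 141 CPM (median 112) at 10 Hz. Both lower frequencies lay wholly above control, and 10 Hz overlapped with it. The log2 fold changes were 0.73 ± 0.12, 0.72 ± 0.12 and 0.18 ± 0.12 (adjusted p = 5.06e-05, 3.42e-05 and 0.419), and the 4 Hz call was lost on the TPM scale.

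Phkb, a regulatory subunit of the kinase that activates phosphorylase, rose by 0.78 ± 0.16 at 1 Hz and 0.83 ± 0.16 at 4 Hz on the log2 scale (adjusted p = 4.52e-04 and 1.67e-04). Its libraries held 44.4 to 69.9 CPM (median 55.6) in control, 62.1 to 126 CPM (median 94.3) at 1 Hz, 74.6 to 114 CPM (median 99.4) at 4 Hz and 46.5 to 80.1 CPM (median 53.5) at 10 Hz, and only those at 4 Hz were all above control. Phkg1, the catalytic subunit, was lower at 1 Hz by 0.85 (SE 0.33, adjusted p = 0.0450). Its libraries overlapped, with 1.45 to 3.78 CPM (median 2.20) in control, 0.407 to 1.93 CPM (median 1.35) at 1 Hz, 1.05 to 2.55 CPM (median 1.67) at 4 Hz and 1.65 to 4.77 CPM (median 2.85) at 10 Hz, from 3 to 35 estimated counts each. The Phkg1 call was lost in 10 of 24 fits that left out 1 library, namely control replicate 1, 2, 5 or 6, 1 Hz replicate 2, 4, 5 or 6, or 10 Hz replicate 1 or 4 (log2 fold change -0.93 to -0.66, adjusted p = 0.0502 to 0.142), and with the replicate number as a block. Phka1 passed the adjusted p at 1 and 4 Hz with 0.40 ± 0.11 and 0.31 ± 0.11, under the fold limit.

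Pygl, the liver phosphorylase, rose by 1.05 ± 0.28 at 1 Hz and 0.86 ± 0.28 at 4 Hz (adjusted p = 0.00544 and 0.0177). It held 0.929 to 2.38 CPM (median 1.38) in control, 2.12 to 4.29 CPM (median 2.86) at 1 Hz, 2.02 to 3.40 CPM (median 2.78) at 4 Hz and 0.834 to 2.95 CPM (median 1.38) at 10 Hz. The groups overlapped, the values rest on 4 to 63 estimated counts per library, and the calls were lost on the TPM scale. Pygb, the brain phosphorylase, was also higher at 1 Hz, where it passed the adjusted p and was not counted. It held 30.7 to 43.3 CPM (median 34.1) in control and 39.6 to 46.3 CPM (median 43.1) at 1 Hz. At 4 Hz it held 27.2 to 39.6 CPM (median 33.5) and at 10 Hz 29.0 to 35.5 CPM (median 32.6).

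On the side of synthesis, Gys1 rose at 1 Hz by 0.54 ± 0.13 (adjusted p = 0.00179). Its libraries held 191 to 269.9 CPM (median 226) in control, 246 to 390.3 CPM (median 354) at 1 Hz, 216 to 340.0 CPM (median 256) at 4 Hz and 157 to 228 CPM (median 182) at 10 Hz, with overlap between control and each frequency. The 1 Hz value was 0.489 to 0.499 without control replicate 1 or 6 or without 1 Hz replicate 4, under the fold limit, and the call was also lost with total count scaling and on the TPM scale. Stbd1 lay wholly above control at 1 and 4 Hz at 325 to 402 CPM (median 359) and 300.2 to 387 CPM (median 355) against 193 to 299 CPM (median 259.7), with log2 fold changes of 0.50 ± 0.10 and 0.46 ± 0.10 that did not exceed the fold limit (adjusted p = 4.00e-04 and 6.37e-04). Gbe1, the branching enzyme, passed the adjusted p at 1 Hz with 0.36 ± 0.11. Ugp2 and Ppp1r3c, which directs protein phosphatase to glycogen, did not pass it against control.

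The share of 1 isoform in its step was compared next, since a ratio within a library does not depend on the scaling between libraries. Each share is the TPM of 1 isoform in percent of the summed TPM of the step, tested by a 2-sided exact permutation test of 6 against 6 libraries, whose smallest p is 0.00216, with adjustment over 42 tests (7 shares and 6 comparisons). Of the 42 tests, 24 passed. The Eno3 share of enolase was 24.7% ± 1.31 (SD, n = 6) in control, 31.3% ± 2.01 at 1 Hz, 41.1% ± 1.61 at 4 Hz and 32.7% ± 3.04 at 10 Hz. Its libraries ran from 22.98% to 26.6% in control, 28.5% to 33.4% at 1 Hz, 38.3% to 43.3% at 4 Hz and 29.3% to 36.2% at 10 Hz. All 3 frequencies thus lay above control, and 4 Hz lay above the other two (exact permutation test, adjusted p = 0.00649 in each of these 5 comparisons). The shares at 10 and 1 Hz differed by 1.40 percentage points (exact permutation test, adjusted p = 0.4656).

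The Pgam2 share of phosphoglycerate mutase was 11.4% ± 2.25 in control (9.15% to 14.9%) and 19.9% ± 1.94 at 1 Hz (17.45% to 22.0%). It was 24.8% ± 1.80 at 4 Hz (22.3% to 27.2%) and 17.51% ± 4.05 at 10 Hz (13.0% to 22.4%). Control, 1 Hz and 4 Hz did not overlap with each other (exact permutation test, adjusted p = 0.00649 for each pair), and 10 Hz differed from control with overlap (adjusted p = 0.0182). The summed level of the step was 1043 ± 69.6 TPM in control, 1039 ± 45.9 at 1 Hz, 908 ± 52.1 at 4 Hz and 892 ± 43.2 at 10 Hz.

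The Pfkm share of phosphofructokinase was 43.2% ± 1.55 in control (41.7% to 45.6%) and 55.3% ± 3.08 at 1 Hz (51.9% to 59.7%). It was 56.9% ± 1.86 at 4 Hz (53.4% to 58.6%) and 49.3% ± 3.40 at 10 Hz (45.6% to 53.4%). The differences from control were 12.1, 13.7 and 6.13 percentage points (exact permutation test, adjusted p = 0.00649, 0.00649 and 0.0101), and 4 and 1 Hz differed by 1.60 points (adjusted p = 0.399). The Pygm share of phosphorylase, 80.2% ± 1.53 in control, was 86.4% ± 1.83 at 4 Hz (exact permutation test, adjusted p = 0.00649), and 82.7% ± 2.34 and 82.5% ± 2.25 at 1 and 10 Hz (adjusted p = 0.0944 and 0.0873).

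Ldhb held a small share of lactate dehydrogenase, 1.504% ± 0.143 in control, 1.54% ± 0.101 at 1 Hz, 1.95% ± 0.221 at 4 Hz and 1.99% ± 0.216 at 10 Hz (exact permutation test against control, adjusted p = 0.734, 0.00649 and 0.0144). The Aldoc share of aldolase, 0.757% ± 0.148 in control, did not pass against control at 1, 4 or 10 Hz (exact permutation test, adjusted p = 0.239, 0.866 and 0.4656). Nor did the Slc16a3 share of both lactate carriers, 48.4% ± 5.28 in control (exact permutation test, adjusted p = 0.273, 0.499 and 0.664).

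**Figure D4:**
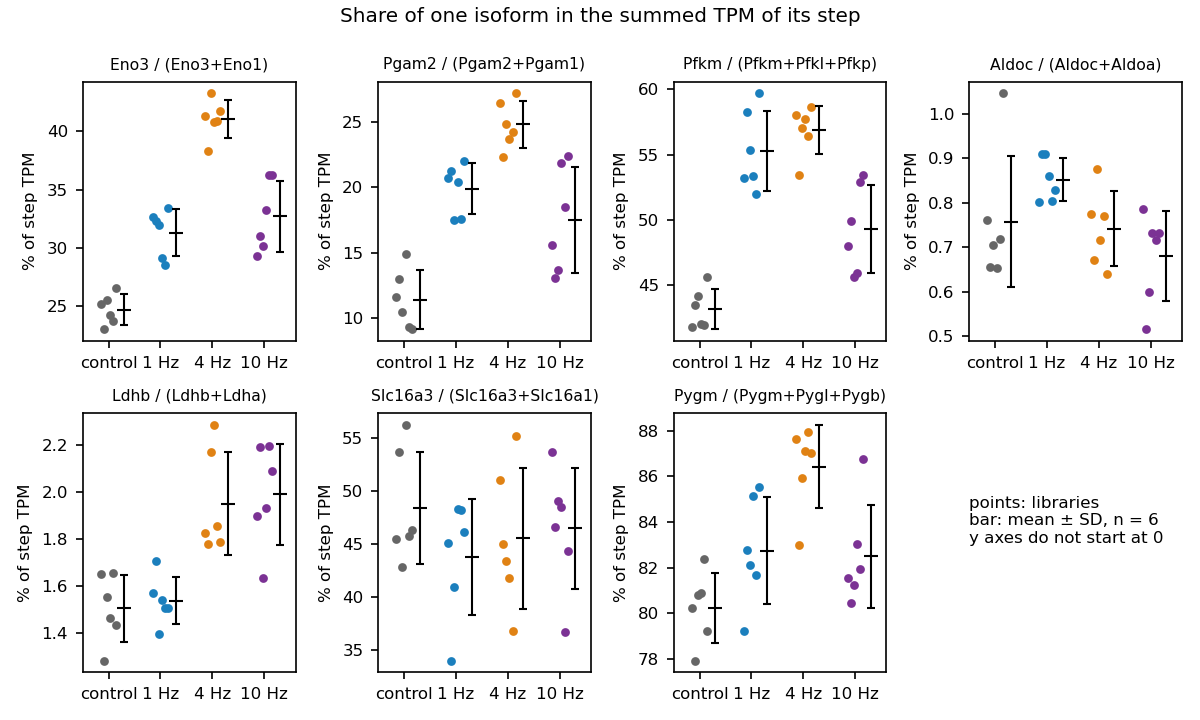
Share of 1 isoform in the summed TPM of its step, in percent, for 7 steps, with 1 point per library and the mean ± SD (n = 6) for each condition. The axes do not start at 0. In the Eno3 panel, control spans 22.98% to 26.6% and 4 Hz spans 38.3% to 43.3%, with 1 and 10 Hz between them.

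Adding the near-identical copies Eno1b (287 to 567 TPM) and Pgam1-ps2 (11.7 to 68.8 TPM) to Eno1 and Pgam1 gave mean Eno3 shares of 19.2%, 24.9%, 33.7% and 26.3% in control and at 1, 4 and 10 Hz, and left each enolase and mutase comparison on its side of the threshold. With the slope on the small RNA share within conditions removed, the Eno3, Pgam2 and Pfkm shares passed against control at each frequency (permutation test of the adjusted shares, adjusted p = 0.0101 to 0.0227), with smaller differences. The slope was estimated from the same libraries and its error does not enter these p-values, so the test is not exact here. At 1 and 4 Hz the adjustment does not separate library preparation from stimulation. At 1 Hz the Pgam2 difference was 5.03 in place of 8.52 percentage points and the Eno3 difference 5.10 in place of 6.62, and both then overlapped with control. The Pgam2 difference between 10 and 4 Hz was -4.33 in place of -7.30 points. The Pygm share at 4 Hz no longer passed, with 2.38 in place of 6.18 points (permutation test of the adjusted shares, adjusted p = 0.0870). Both alternatives were chosen after seeing the data.

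Between frequencies, Gys1, Gbe1, Stbd1 and other glycogen genes were lower at 10 Hz than at 1 Hz. Of 32 members, 11 were counted, 1 higher and 10 lower at 10 Hz, where 17.9% of all genes were counted (9.45% higher and 8.49% lower). By the adjusted p alone 19 passed (36.3% of all genes), and the libraries of 8 members did not overlap with 10 Hz lower and of 0 with 10 Hz higher (7.49% and 5.67% of all genes). Gys1, Gbe1 and Stbd1 had log2 fold changes of -0.83 ± 0.13, -0.70 ± 0.11 and -0.59 ± 0.10 (adjusted p = 2.12e-05, 3.10e-05 and 5.93e-05), and their libraries did not overlap. Gbe1 held 109 to 175 CPM (median 122) at 1 Hz and 67.8 to 101 CPM (median 76.0) at 10 Hz, with 91.8 to 108 CPM (median 102) in control and 91.5 to 131 CPM (median 108) at 4 Hz. Stbd1 held 199 to 279 CPM (median 247) at 10 Hz.

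Also counted lower were Phkb (-0.68 ± 0.15), Pygl (-1.05 ± 0.27) and Pygm (-0.55 ± 0.12), so that 6 of 11 glycogen genes were. Pygm was under the fold limit (-0.498 to -0.486) without 1 Hz replicate 6 or 10 Hz replicate 3. With the small RNA share as a covariate 1 member was counted between 10 and 1 Hz (Pygb, the brain phosphorylase) and 0 between 10 and 4 Hz. Of all 13318 genes, that fit counted 68 higher and 118 lower at 10 than at 1 Hz, and 0 between 10 and 4 Hz. Phkg1 was the member counted higher at 10 Hz, by 1.13 ± 0.31 (adjusted p = 0.00648).

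In glycolysis, Pfkm (-0.61 ± 0.09), Aldoc (-0.67 ± 0.14) and Gpi1 (-0.55 ± 0.10, adjusted p = 2.58e-04) were counted lower at 10 Hz than at 1 Hz. Gpi1, the isomerase near the entry of the pathway, held 908 to 1289 CPM (median 1078) in control, 1128 to 1585 CPM (median 1394) at 1 Hz, 1009 to 1431 CPM (median 1109) at 4 Hz and 806 to 1069 CPM (median 924.5) at 10 Hz. Its 10 Hz libraries were all below its 1 Hz libraries, while both overlapped with control. Without 1 Hz replicate 4 its value was -0.498, under the fold limit. Pfkfb3, which raises fructose 2,6-bisphosphate, was counted lower at 10 Hz than at 1 Hz (-0.52 ± 0.16, adjusted p = 0.0129) and than at 4 Hz (-0.51 ± 0.16, adjusted p = 0.0208). It held 19.5 to 41.8 CPM (median 22.5) in control, 26.8 to 38.0 CPM (median 33.3) at 1 Hz, 26.5 to 36.7 CPM (median 34.1) at 4 Hz and 15.2 to 28.2 CPM (median 23.5) at 10 Hz. The first of these calls was lost without 1 Hz replicate 4 or 5 or 10 Hz replicate 3 (-0.481 to -0.419) and the second without 4 Hz replicate 1 or 6 or 10 Hz replicate 1 or 3 (-0.499 to -0.413).

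Against 4 Hz, 7 of 32 members were counted at 10 Hz, 0 higher and 7 lower, where 11.0% of all genes were counted (5.32% higher and 5.64% lower). By the adjusted p alone 17 passed (22.8% of all genes), and the libraries of 3 members did not overlap with 10 Hz lower and of 0 with 10 Hz higher (3.54% and 2.67% of all genes). The counted genes beside Pfkfb3 were Pgam2 (-0.61 ± 0.15), Gys1 (-0.51 ± 0.13), Phkb (-0.74 ± 0.15), Pygl (-0.86 ± 0.27), Pygm (-0.54 ± 0.12) and Stbd1 (-0.55 ± 0.10), with no overlap for Stbd1. With total count scaling 3 were counted, all lower, where 933 of 13318 genes were counted higher and 591 lower. On log2(TPM + 1) 1 was counted higher and 2 lower, where 645 of 13627 genes were counted higher and 389 lower. Without 10 Hz replicate 3 the count was 3, and without 4 Hz replicate 1 or 6 it was 4. Gys1 was lost without 4 Hz replicate 1 or 6 or 10 Hz replicate 2, 3 or 5 (-0.498 to -0.442), Pygm without 4 Hz replicate 1 or 6 or 10 Hz replicate 3 (-0.499 to -0.477) and Pygl without 4 Hz replicate 3 or 6 or 10 Hz replicate 1, 3 or 4 (adjusted p = 0.0501 to 0.0673).

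Between 4 and 1 Hz, 1 of 32 members was counted, higher at 4 Hz, where 3.00% of all genes were counted (1.59% higher and 1.40% lower). By the adjusted p alone 5 passed (12.3% of all genes), and libraries did not overlap with 4 Hz higher in 1 member and lower in 0 (2.37% and 3.33% of all genes). The counted gene was Ppp1r3c, at 0.81 ± 0.19 on the log2 scale (adjusted p = 0.00609). It held 3.80 to 8.88 CPM (median 6.18) at 1 Hz and 9.30 to 14.7 CPM (median 10.2) at 4 Hz, with 5.02 to 10.1 CPM (median 8.39) in control and 4.77 to 9.02 CPM (median 8.35) at 10 Hz, so that the control range lay across both. Eno3 differed by 0.34 ± 0.11 (adjusted p = 0.0363) and Pgam2 by 0.26 ± 0.15 (adjusted p = 0.274), both under the fold limit, although their shares of the step did differ.

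Within a condition, the order of libraries was compared between glycolysis genes. At 4 Hz, replicate 1 was among the 2 highest of 6 libraries in 14 of 14 glycolysis genes and replicate 6 in 13 of 14. The same libraries had the highest myotube marker sums at 4 Hz, 27118 and 29067 TPM, against 21204 to 24288 TPM in the other four. At 1 Hz, replicate 4 was among the 2 highest in 14 of 14 and replicates 1 and 2 in 0, and among the control libraries replicate 4 was the highest in 10 of 14. In the 11 glycogen genes the most concentrated case was 10 Hz replicate 6, among the 2 highest in 8. At 10 Hz the orders differed, since replicate 1 was the highest in 7 of 14 glycolysis genes with a marker sum of 17441 TPM, and replicate 6, with the highest sum of 21929.8 TPM, was the highest in 2. At 1 Hz replicate 6 had the highest sum, 25599.9 TPM, and was the highest in 2 of 14 and among the 2 highest in 6. Replicate 4 at 1 Hz had the next sum, 24867.5 TPM, against 21079.5 to 21516 TPM in the remaining 1 Hz libraries. Control replicate 4 had the highest sum in control, 16544 TPM. The part of marker content in these orders was not tested.

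Of 49 further genes of these pathways, 39 were tested. At 1 Hz 5 were counted higher and 1 lower, at 4 Hz 4 higher and 1 lower, and at 10 Hz 0 higher and 1 lower, with median log2 fold changes of 0.09, 0.00 and -0.10. Of all genes, 9.34%, 10.5% and 1.24% were counted higher and 8.99%, 9.61% and 0.623% lower, so the shares counted higher at 1 and 4 Hz are near the background, and the counted genes are given as single values. Pdk2, a kinase that inhibits pyruvate dehydrogenase, rose at 1 and 4 Hz (0.63 ± 0.13 and 0.67 ± 0.13), with libraries wholly above control. Its relative Pdk4 rose at 1 Hz (0.61 ± 0.11), the opposing phosphatase Pdp1 rose at 4 Hz (0.51 ± 0.11), and Pdk3 fell at 10 Hz by 0.58 on the log2 scale (SE 0.12, adjusted p = 0.00466).

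Among further glycogen genes, Gaa, the lysosomal enzyme that degrades glycogen, rose at 1 Hz (0.83 ± 0.15), and Phka2, the liver alpha subunit of phosphorylase kinase, rose at 1 and 4 Hz (0.56 ± 0.12 and 0.52 ± 0.12). Ppp1r3a, the muscle glycogen targeting subunit, rose at 4 Hz (1.00 ± 0.28, adjusted p = 0.00567). Nhlrc1, a ubiquitin ligase lost in a glycogen storage epilepsy, fell by 1.17 at 1 Hz and 1.26 at 4 Hz on the log2 scale, from at most 2.32 CPM in control. The glucose carrier Slc2a3 rose at 1 Hz (0.56 ± 0.21, adjusted p = 0.0400).

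Myotube markers were compared in the same way. Of the 13 markers, 9 were counted higher at 1 Hz, 10 at 4 Hz and 2 at 10 Hz, with median log2 fold changes of 0.58, 0.84 and 0.19, in comparisons that share the control libraries. The 32 members had medians of 0.28, 0.16 and -0.12 in the same comparisons, and Eno3, 1 of them, stood at 0.57, 0.91 and 0.42. The part of myotube content in the member changes was not tested. Of 8 cycling myoblast markers, 1 was counted higher at 1 Hz, 4 higher and 1 lower at 4 Hz and 0 at 10 Hz. Their summed levels were 42.7 to 66.2 TPM (median 55.7) in control and 41.1 to 50.9 TPM (median 46.7) at 1 Hz. At 4 Hz they were 29.0 to 49.7 TPM (median 41.6) and at 10 Hz 46.4 to 57.1 TPM (median 50.4). The median sum was thus below control at each frequency, with overlap, although more markers were counted higher than lower at 4 Hz. Of 3 fibroblast markers tested, 0, 1 and 1 were counted lower (48.9 to 109 TPM), and the 1 leukocyte marker tested was not counted. Of 15 hypoxia targets outside the pathway, 3 were counted higher and 1 lower at 1 Hz, 3 higher at 4 Hz and 1 higher at 10 Hz, with medians of 0.01, 0.17 and -0.08. The shares of all genes counted higher were 9.34%, 10.5% and 1.24% at 1, 4 and 10 Hz, and lower 8.99%, 9.61% and 0.623%.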

How the data were processed

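RNA of 24 tissue libraries (6 per condition) was read paired-end on the Singular G4 platform. The authors processed reads with the nf-core/rnaseq pipeline on GRCm39 with Ensembl annotation (its release is not given in the sources used here), with STAR and Salmon named in the submitters' notes. The deposited gene tables hold estimated counts from Salmon, with 6.62% to 10.6% of a library's values not whole, and TPM, which the authors' pipeline scaled by transcript length and library. How the counting treated strand is not given in the sources used here.

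Counts were rounded, filtered by filterByExpr (13318 of 56941 genes, 99.8% of counts) and scaled by TMM. All 24 libraries entered 1 edgeR 4.0.16 quasi-likelihood fit (R 4.3.3) with condition as the only term. SE is the log2 fold change divided by the square root of F. Of the members, values are given in full for each gene counted in a comparison and for Gapdh, and further pathway genes are named where counted against control. The members, lists and tests were chosen with earlier results of these data known. Isoform shares were tested in Python 3.11.15 with numpy 2.4.6. Alternatives used limma 3.58.1 on log2(TPM + 1) and log2(TPM + 0.1), DESeq2 1.42.0 with and without apeglm 1.24.0, other scalings and filters, a small RNA covariate, a replicate block and fits without each library. The scripts were tested on simulated data. Gene positions are from GRCm39 and promoters from RefSeq on GRCm38.p6. The number of libraries and their depth limit the precision, and low members such as Pygl and Phkg1 carry the largest SE.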

Additional observations from a re-analysis of the deposited data

Results flagged for a closer look

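Values of single libraries were screened for a gap to the others of their condition, over 96 groups of 6 libraries, where chance alone flags about 1 in 20 groups. In 2 of them 1 library stood apart. Ppp1r3c, the glycogen targeting subunit, was at 14.7 CPM in 4 Hz replicate 3, with the other 5 libraries at 9.30 to 10.8 CPM. The Aldoc share of aldolase was 1.05% in control replicate 6, with the other 5 control libraries at 0.654% to 0.762%.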

How the results depend on the processing

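Counts of members kept their size within 1.5 times under the settings not named here. By the adjusted p alone, 16, 16, 3, 5, 19 and 17 of 32 members passed at 1 Hz, 4 Hz and 10 Hz against control, 4 against 1 Hz, 10 against 1 Hz and 10 against 4 Hz. With the small RNA share as a covariate, 0 were counted at 1 Hz against control, 1 at 4 Hz against control, 1 at 10 against 1 Hz and 0 at 10 against 4 Hz. Of all 13318 genes, that fit counted 1 higher and 0 lower, 144 and 91, 68 and 118, and 0 and 0 in these comparisons. At 10 Hz against control, DESeq2 and edgeR without a filter on low counts each counted 1, Pgam2. On log2(TPM + 1) without a filter, 5 were counted at 1 Hz against control, 0 at 4 against 1 Hz and 2 at 10 against 4 Hz, and on log2(TPM + 0.1) 2 at 4 against 1 Hz. Between 10 and 4 Hz, total count scaling, log2(TPM + 1) and log2(TPM + 0.1) gave 3 each.

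Leaving out 1 library gave 6 to 10, 6 to 9, 0 to 1, 1 to 1, 9 to 11 and 3 to 10 members in the same order, and 3 to 4, 5 to 5, 4 to 5, 3 to 5, 3 to 3 and 4 to 4 isoform shares past the threshold. The count at 10 Hz was 1, again Pgam2, without control replicate 4, 4 Hz replicate 6 or 10 Hz replicate 2 or 3. The 4 against 1 Hz share count of 5 was 3 without 4 Hz replicate 1, 4, 5 or 6. With the small RNA slope removed, 3 share calls were lost and 1 was gained (permutation test of the adjusted shares, without the error of the slope). The Pygm share lost its calls at 4 Hz against control (adjusted p = 0.0870) and at 10 against 4 Hz (-3.94 to -0.676 points, adjusted p = 0.540), and the Pfkm share at 10 against 1 Hz (-6.01 to -4.00 points, adjusted p = 0.0909). The Pygm share at 10 against 1 Hz turned from -0.255 to 3.03 points (adjusted p = 0.866 and 0.0227), and at 1 Hz against control, without a call in either setting, from 2.501 to -1.33. The cause was not tested.

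Whether equal replicate numbers pair libraries was not settled. Of 36 same-numbered pairs, 10 had a correlation of deviations above 0.1 (range -0.18 to 0.36). The median over same-numbered pairs was 0.017, against -0.013 for pairs of other numbers, and 10 of 24 libraries correlated best with their own number. With the replicate block, 8, 7, 0, 1, 11 and 7 members were counted, and the paired sign-flip test of shares passed 0 in each comparison. The smallest p of the sign-flip test is 0.03125, which passes adjustment over 42 tests only where many tests reach it. Depth limits Pygl and Phkg1, and genes under the filter such as Pfkfb1 were not testable.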
